A study of Mus musculus with 20 samples.

Results

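The 9 genes described here are the Sox genes Sox1, Sox2, Sox3, Sox4, Sox8, Sox9, Sox11, Sox17 and Sox21, chosen by gene symbol from the 55421 transcript rows of the mouse RNA-seq tables. Each symbol occurs in a single row. Their reads were counted in 20 libraries, 10 of induced presomitic mesoderm (iPSM) colonies and 10 of embryonic stem cells (ESC). The iPSM colonies were differentiated from E14TG2a ESC that carry luciferase under the Hes7 promoter, and the ESC libraries came from the KY1.1 line. In both cell types, doxycycline (dox) switches on either Clock with Bmal1 (Clock/Bmal1) or Clock with a dominant-negative Bmal1 (Clock/Bmal1DN) from tetO transgenes. Clock/Bmal1 clones 12 and 20 and Clock/Bmal1DN clones 7 and 19 of iPSM received 1000 ng/mL dox for 2 hours, and each also gave a library without dox. Clock/Bmal1 clones 1 and 7 and Clock/Bmal1DN clones 5 and 6 of ESC received 500 ng/mL dox for 6 hours, and again each gave a library without dox. Each cell type also had its own line labelled control, KY1.1 in ESC and the luciferase line in iPSM, with 1 dox-treated and 1 untreated library. The numbered lines are called clones here, and their libraries without dox are called untreated. Each group holds 2 of them, so p-values measure the spread between these lines, and nothing in the labels says that cultures were repeated within a line. The parental line, the culture and the cell type change together, as do dose and time of dox, so their parts in a difference between iPSM and ESC cannot be told apart.

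Sox genes encode transcription factors that bind DNA through an HMG box and are grouped by its sequence. Sox1, Sox2 and Sox3 form the SoxB1 group and maintain neural progenitors. Sox2 also pairs with OCT4 (Pou5f1) in pluripotent cells. Sox21 belongs to SoxB2, whose members act mostly as repressors. Sox4 and Sox11 are the SoxC genes of neural and mesenchymal progenitors, and Sox8 and Sox9 are SoxE genes of neural crest, gonad and cartilage. Sox17, a SoxF gene, is a factor of endoderm and of endothelium. In the tail bud, neuromesodermal progenitors that keep Sox2 lean to the neural tube, and those that lose it form presomitic mesoderm. CLOCK and BMAL1 form a heterodimer that binds the E-box, whose core letters are CACGTG, in promoters of clock genes such as Per1 and Ciart.

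The promoter of Sox8 is shown because Sox8 was the member that changed with dox, and that of Sox2 as a member without the motif. Those of Ciart and Bhlhe41 are shown because their pattern over the libraries was most like that of Sox8. That likeness rests on the induced Clock/Bmal1 libraries. The sequences are from RefSeq (GRCm38.p6), run 5′ to 3′ on the gene's strand, cover 250 bases before and 50 after the start of transcription, and have each CACGTG in capitals. They lie at chr17:25570637-25570936 (Sox8, minus strand), chr3:95882179-95882478 (Ciart, minus), chr6:145865371-145865670 (Bhlhe41, minus) and chr3:34649745-34650044 (Sox2, plus).
Sox8: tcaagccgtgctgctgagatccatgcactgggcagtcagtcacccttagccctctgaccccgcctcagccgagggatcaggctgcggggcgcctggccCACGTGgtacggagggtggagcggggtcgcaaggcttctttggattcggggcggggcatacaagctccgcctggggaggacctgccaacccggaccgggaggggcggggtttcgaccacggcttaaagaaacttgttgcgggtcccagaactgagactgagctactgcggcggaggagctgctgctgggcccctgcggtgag
Ciart: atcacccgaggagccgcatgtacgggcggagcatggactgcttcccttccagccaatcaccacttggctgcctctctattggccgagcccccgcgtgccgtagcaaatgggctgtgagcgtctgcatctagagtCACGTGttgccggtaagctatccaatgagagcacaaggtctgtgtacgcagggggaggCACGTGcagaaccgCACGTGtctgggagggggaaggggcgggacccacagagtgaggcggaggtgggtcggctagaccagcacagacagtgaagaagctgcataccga
Bhlhe41: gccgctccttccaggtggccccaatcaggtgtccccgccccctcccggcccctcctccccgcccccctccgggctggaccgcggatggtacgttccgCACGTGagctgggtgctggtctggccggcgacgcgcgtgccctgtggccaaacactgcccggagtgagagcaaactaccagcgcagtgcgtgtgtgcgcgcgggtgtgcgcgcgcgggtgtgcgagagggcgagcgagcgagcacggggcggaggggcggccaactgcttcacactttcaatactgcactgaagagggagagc
Sox2: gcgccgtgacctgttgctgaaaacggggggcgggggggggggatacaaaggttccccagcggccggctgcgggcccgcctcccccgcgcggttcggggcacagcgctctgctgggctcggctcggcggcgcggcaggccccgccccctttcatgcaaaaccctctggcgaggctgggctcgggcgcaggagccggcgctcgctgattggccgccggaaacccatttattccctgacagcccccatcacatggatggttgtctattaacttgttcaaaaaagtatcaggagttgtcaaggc

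The motif CACGTG, which reads the same on both strands, was present once in the Sox8 promoter, with its first base 152 bases before the start. The Bhlhe41 promoter held it 153 bases before the start, and the Ciart promoter held it 3 times, at 116, 58 and 44 bases. Promoters were in the RefSeq table for 6 of the 9 Sox genes (Sox1, Sox2, Sox4, Sox8, Sox11 and Sox21), and the Sox8 promoter was the 1 of these 6 with the motif. Among 10 circadian E-box targets, 8 had a promoter in the table and 4 of these held the motif (Per1, Tef, Bhlhe41 and Ciart). Of all 32851 promoters of this length, 7.15% held CACGTG. The related CACGTT, searched on both strands, was in 4.68% of all promoters and in none of the 6 Sox promoters. A match is a description of these letters and says nothing of binding.

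Library totals lay between 38.2 and 47.8 M counts in iPSM and between 40.3 and 57.3 M in ESC. Reads fell on 50.2 to 54.0% of rows in 9 iPSM libraries and on 49.3 to 53.0% in 9 ESC libraries. The untreated iPSM control library stood apart with 69.4%, and its score of −168 set it off on the first principal component of the iPSM libraries (42.7% of their variance). The untreated ESC control library stood apart too, with reads on 43.8% of rows and a score of −104 on the first component of the ESC libraries (28.1% of variance), where the next lowest was −31.5. Neither library enters a contrast between clones. Both are in the fits, however, and so enter the low-count filter and the scaling. The smallest group, a control group, holds 1 library, and the filter uses that size for every row. A row could thus pass through any 1 library alone, a control library included, which bears on the number of genes tested. Arntl, the mouse symbol of Bmal1, reached 2966 and 4283 CPM (counts scaled to library size) in dox-treated Clock/Bmal1 iPSM clones 12 and 20 and 2414 and 4523 CPM in ESC clones 1 and 7, against 49.1 to 72.1 CPM in the untreated Clock/Bmal1 clones. In the Clock/Bmal1DN lines it was 828 and 143 CPM in dox-treated iPSM clones 7 and 19, against 39.0 and 61.9 CPM untreated, and 1737 and 4466 CPM in dox-treated ESC clones 5 and 6, against 58.5 and 46.8 CPM untreated. Dox-treated iPSM clone 19 of Clock/Bmal1DN thus had the lowest Arntl level of the 8 induced libraries, while its Clock level was 986 CPM, against 101 CPM untreated. The iPSM control line had 18.1 CPM of Arntl untreated and 18.8 CPM with dox, below all untreated iPSM clones. The ESC control line had 42.5 CPM untreated and 41.3 CPM with dox. Why the untreated iPSM clones lay above their control line was not tested. The CPM values are scaled by TMM (trimmed mean of M values) over all 20 libraries.

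Sox2, Sox4 and Sox11 had the highest levels of the 9 genes in both cell types, and their order differed between them. On the authors' RPKM scale (reads scaled to gene-body length and library size), the 4 untreated iPSM clones averaged 17.5 ± 2.44 for Sox4, 15.6 ± 2.23 for Sox11 and 14.4 ± 1.10 for Sox2 (SD, n = 4 clones). The ranges of these neighbours overlapped. In the 4 untreated ESC clones, Sox2 averaged 71.4 ± 9.90 RPKM, Sox4 10.9 ± 3.48 and Sox11 4.53 ± 1.22, with no overlap between neighbours. Sox2 took 22.6 to 34.5% of the summed RPKM of the 9 genes in the 10 iPSM libraries (median 26.7%), against 76.1 to 86.3% in the 10 ESC libraries (median 84.2%). The remaining 6 genes averaged under 1 RPKM in both. In iPSM their order was Sox3 (0.525 ± 0.225 RPKM), Sox8 (0.145 ± 0.0203), Sox17 (0.102 ± 0.0331), Sox21 (0.0845 ± 0.0241), Sox1 (0.0748 ± 0.0453) and Sox9 (0.0404 ± 0.0237). Sox3 stood clear of Sox8, and from Sox8 down each neighbour's range overlapped the next. In ESC the order was Sox21 (0.374 ± 0.129 RPKM), Sox3 (0.319 ± 0.0828), Sox1 (0.0857 ± 0.0428), Sox8 (0.0673 ± 0.00942), Sox9 (0.0497 ± 0.0275) and Sox17 (0.0486 ± 0.0147). Sox21 and Sox3 overlapped, Sox3 stood clear of Sox1, and the others overlapped their neighbours. Genes with introns (Sox8, Sox9 and Sox17) are divided by a length that includes them, which lowers their RPKM beside the others.

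**Figure D1:**
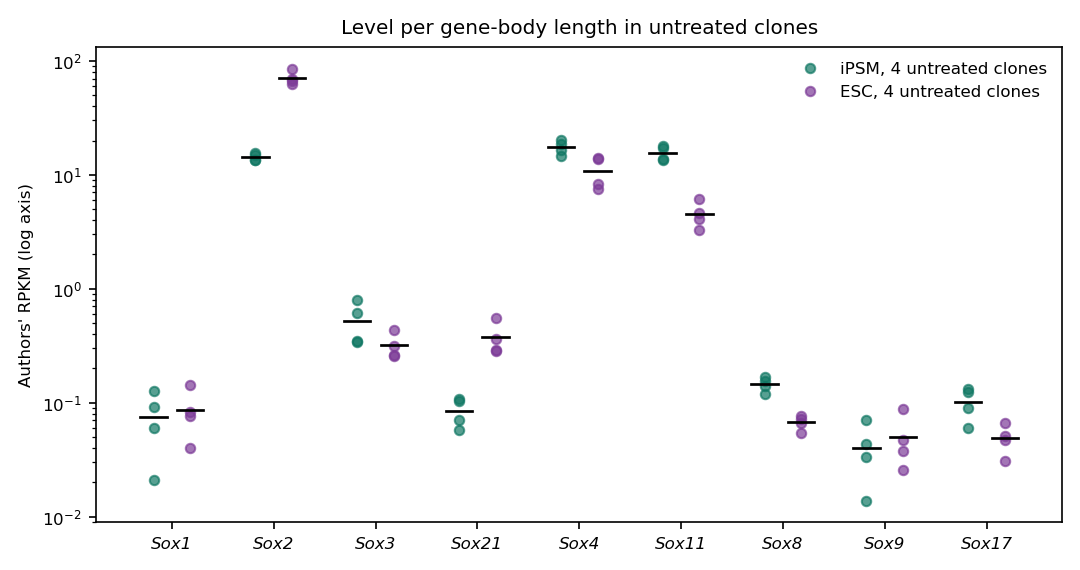
Authors' RPKM of the 9 Sox genes on a log axis in untreated clones, with each point a clone, 4 of iPSM to the left of 4 of ESC, and the black line their mean. Sox2 averaged 14.4 RPKM in iPSM and 71.4 RPKM in ESC, and the 6 genes other than Sox2, Sox4 and Sox11 averaged under 1 RPKM.

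The first comparison set the 4 untreated iPSM clones against the 4 untreated ESC clones. Sox2 and Sox21 were lower in iPSM, Sox11 and Sox8 were higher, and the other 5 genes did not pass the test. Thus 4 of 9 members were called, 2 in each direction. Of all 26689 genes tested, 60.0% were called, 31.3% higher and 28.8% lower, so the members' share is no larger than the background. The median log2 fold change was 0.46 over the 9 members and 0.053 over all genes tested. In bulk RNA, fewer cells with a gene and less RNA per cell cannot be told apart.

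Sox2 (chr3:34650405-34652461, plus strand, mm10) had 29.5, 31.3, 26.0 and 26.5 CPM in untreated iPSM clones 12, 20, 7 and 19. In untreated ESC clones 1, 7, 5 and 6 it had 152, 158, 190 and 142 CPM. Every iPSM clone was below every ESC clone, and this also held for all 10 iPSM libraries against all 10 ESC libraries, with 16.9 to 31.3 CPM against 101 to 198 CPM. The log2 fold change was −2.51 ± 0.145 (SE), or 5.68-fold lower in iPSM (adjusted p = 2.85e-09). Sox2 lies on the same strand inside Sox2ot, a long noncoding transcript that had 2.74 ± 0.422 CPM in iPSM and 2.59 ± 0.588 CPM in ESC (SD, n = 4 clones each) and did not pass (0.086 ± 0.286, adjusted p = 0.831).

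Sox21 (chr14:118233232-118237030, minus strand), the SoxB2 repressor, had 0.360, 0.222, 0.382 and 0.257 CPM in untreated iPSM clones 12, 20, 7 and 19. In ESC clones 1, 7, 5 and 6 it had 1.52, 1.20, 2.29 and 1.19 CPM. The groups did not overlap, and neither did all 10 iPSM libraries with all 10 ESC libraries. The noncoding Gm4675 overlaps Sox21 by 799 bases on the opposite strand, and Gm26735 overlaps Sox4 by 2753 bases, so reads there are uncertain in the same way for both genes. The log2 fold change was −2.33 ± 0.378, or 5.01-fold lower in iPSM (adjusted p = 7.63e-05). The other SoxB1 genes had levels in both cell types that overlapped. Sox3 (chrX:60891366-60893430, minus strand), expressed in epiblast and neural progenitors, averaged 1.05 ± 0.479 CPM in iPSM and 0.721 ± 0.190 CPM in ESC (log2 fold change 0.46 ± 0.389, adjusted p = 0.324). Sox1 (chr8:12395295-12400126, plus strand), a marker of neuroectoderm, averaged 0.346 ± 0.206 CPM in iPSM and 0.453 ± 0.227 CPM in ESC (−0.53 ± 0.480, adjusted p = 0.354). Without untreated ESC clone 7, the Sox1 value was 0.053 (adjusted p = 0.972).

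Sox11 (chr12:27334264-27342574, minus strand), a SoxC factor of progenitors, had 106, 114, 140 and 136 CPM in untreated iPSM clones 12, 20, 7 and 19. It had 37.7, 56.1, 41.1 and 29.6 CPM in untreated ESC clones 1, 7, 5 and 6. All iPSM clones were above all ESC clones, as were all 10 iPSM libraries (89.6 to 140 CPM) above all 10 ESC libraries (24.1 to 59.7 CPM). The log2 fold change was 1.60 ± 0.236, or 3.02-fold higher in iPSM (adjusted p = 3.07e-05). Sox4 (chr13:28948919-28953713, minus strand), the other SoxC gene, had 64.6, 90.9, 73.8 and 92.3 CPM in iPSM and 39.7, 73.8, 43.1 and 72.4 CPM in ESC, in the same order of clones. These ranges met. The 2 ESC clones with high Sox4, 7 and 6, also had the high summed fibroblast feeder levels, at 251 and 488 CPM, against 88.1 and 96.1 CPM in clones 1 and 5, and their part in the Sox4 spread was not tested. The log2 fold change of 0.49 ± 0.275 did not pass (adjusted p = 0.137). Sox4 did pass at 0.75 without untreated ESC clone 7 (adjusted p = 0.0418), at 0.59 with the control libraries added (0.0456) and at 0.42 with no filter on low counts (0.0138).

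Sox8 (chr17:25565892-25570686, minus strand), a SoxE gene, had 0.626, 0.578, 0.692 and 0.770 CPM in untreated iPSM clones 12, 20, 7 and 19, or 26 to 39 counts. In untreated ESC clones 1, 7, 5 and 6 it had 0.351, 0.399, 0.375 and 0.287 CPM, or 12.5 to 21 counts. The groups did not overlap, at a log2 fold change of 0.92 ± 0.286, or 1.90-fold higher in iPSM (adjusted p = 0.0113). The untreated ESC control library, which stood apart, had 0.722 CPM of Sox8, inside the iPSM range. The antisense transcript 2810468N07Rik, which overlaps Sox8 by 329 bases, was also higher in iPSM (1.21 ± 0.278, adjusted p = 0.00148), and without known strand its reads over those bases cannot be told apart from those of Sox8. Sox9 (chr11:112782224-112787760, plus strand), the SoxE factor of cartilage and gonad, averaged 0.216 ± 0.128 CPM in iPSM and 0.301 ± 0.167 CPM in ESC (−0.43 ± 0.556, adjusted p = 0.531). With the untreated control libraries added it was 1.35 (adjusted p = 0.105). The iPSM control library, the one that stood apart with 69.4% of rows, held 47 counts of Sox9, and the ESC control library held 0 counts. Sox17 (chr1:4490931-4496413, minus strand), the SoxF factor, averaged 0.536 ± 0.185 CPM in iPSM and 0.291 ± 0.0883 CPM in ESC (0.86 ± 0.372, adjusted p = 0.0588). It passed at 0.81 with the control libraries added (adjusted p = 0.0435).

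**Figure D2:**
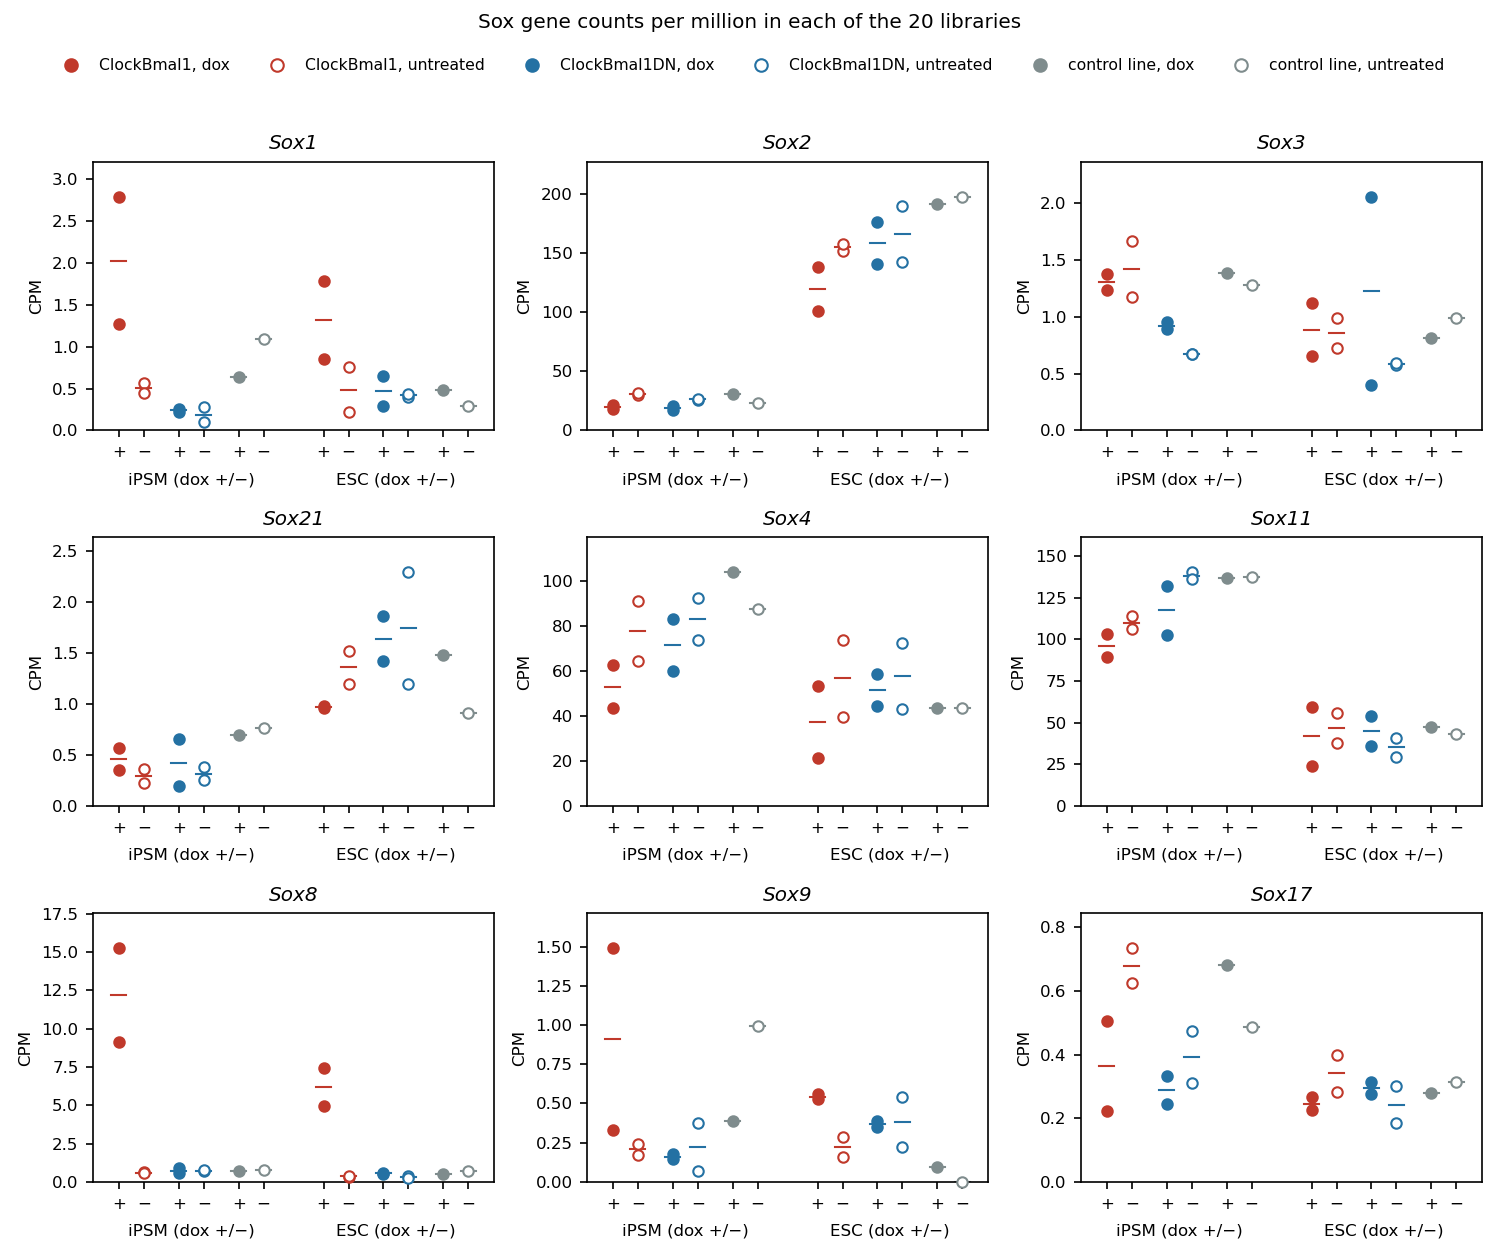
CPM of each Sox gene in all 20 libraries on linear axes from 0, with iPSM left of ESC, dox (+, filled) left of untreated (−, open) and short lines at group means. Sox2 lies between 16.9 and 31.3 CPM in iPSM and between 101 and 198 CPM in ESC, and Sox8 stands out in the dox-treated Clock/Bmal1 clones, at 9.11 and 15.3 CPM in iPSM and 4.99 and 7.42 CPM in ESC.

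Other genes of the family split in the same comparison. Of 11 further Sox genes, 10 were tested, of which 4 were higher in iPSM, 3 were lower and 3 did not pass, with a median log2 fold change of −0.066. Of all genes tested, 60.0% were called, 31.3% higher and 28.8% lower, so these shares are near the background. The SoxD genes Sox6, Sox5 and Sox13, encoding cofactors that lack a transactivation domain, were higher by 2.38 ± 0.217 (12.3 ± 2.74 CPM in iPSM and 2.36 ± 0.543 CPM in ESC, adjusted p = 2.46e-07), 1.13 ± 0.349 (1.94 ± 0.682 CPM in iPSM and 0.938 ± 0.739 CPM in ESC, adjusted p = 0.0110) and 0.70 ± 0.217 (23.1 ± 0.935 CPM in iPSM and 14.2 ± 1.91 CPM in ESC, adjusted p = 0.0110). Sox12, the remaining SoxC gene, was higher by 1.48 ± 0.317 (7.61 ± 1.42 CPM in iPSM and 2.75 ± 1.05 CPM in ESC, adjusted p = 0.000879). Sox15, the single SoxG gene, was lower at −1.44 ± 0.394 (0.805 ± 0.271 CPM in iPSM and 2.24 ± 1.02 CPM in ESC, adjusted p = 0.00518), but not past the threshold without untreated ESC clone 1 (−0.81, adjusted p = 0.0669). The SoxF genes Sox7 and Sox18, which act in endothelium, were lower too. No iPSM library held more than 0.118 CPM of Sox7 or 0.0846 CPM of Sox18. Both thus passed the low-count filter through ESC libraries alone, where they are higher, so the direction of these calls is not independent of the filter. Sox7 had 0.0432 ± 0.0198 CPM in iPSM and 0.379 ± 0.0898 CPM in ESC (adjusted p = 0.00129), and Sox18 had no read in the untreated iPSM clones and 0.0195 to 0.252 CPM in the ESC clones (adjusted p = 0.0149). The Sox18 call was lost without untreated ESC clone 7 (adjusted p = 0.0698) or 6 (0.0535) and with the control libraries added (1.00), that of Sox5 without untreated iPSM clone 12 (0.94, adjusted p = 0.0516), and that of Sox12 in the dox-treated clones (0.52, adjusted p = 0.166).

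**Figure D3:**
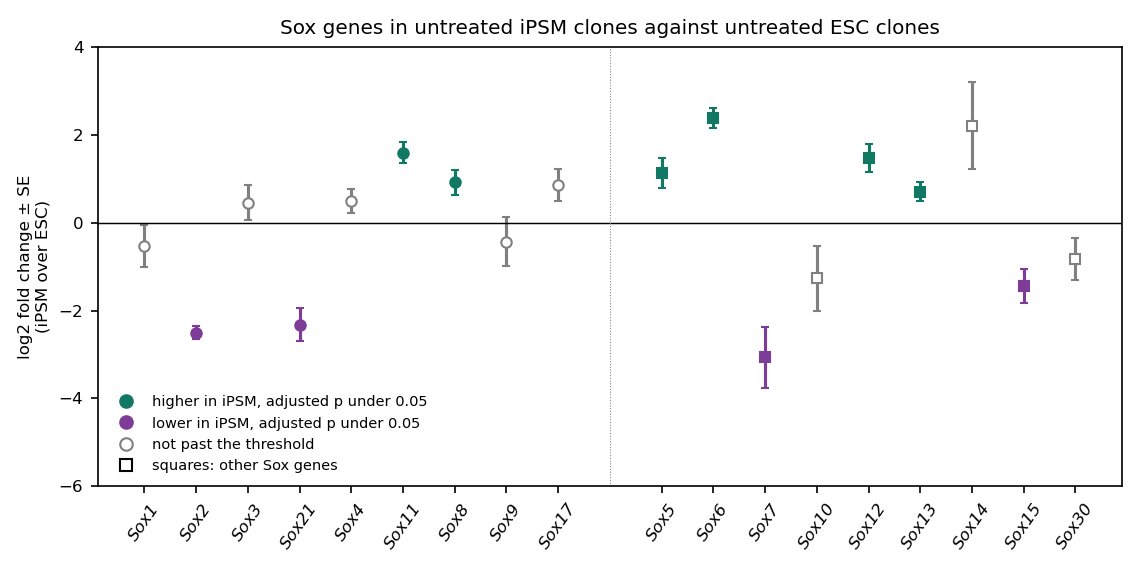
Log2 fold change ± SE of the Sox genes between untreated iPSM and untreated ESC clones (4 each), with circles for the 9 members and squares for 9 other Sox genes (Sox18, with no read in the iPSM clones, is not drawn). Sox2 and Sox21 lie at −2.51 and −2.33, and Sox11 and Sox8 at 1.60 and 0.92.

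Marker lists differed in how they stood against the 60.0% of all genes called. Of 12 pluripotency factors and SOX2-OCT4 targets, 12 were lower in iPSM (median −2.38), led by Zfp42, a marker of naive ESC, with 41.4 ± 5.42 CPM in iPSM and 418 ± 59.8 CPM in ESC. The summed level of that list was 477 to 567 CPM in untreated iPSM clones and 2233 to 2852 CPM in untreated ESC clones. Of 12 presomitic mesoderm and tail bud genes, 11 were higher in iPSM (median 5.27), led by Msgn1 (44.6 ± 21.4 CPM in iPSM and 0.0322 ± 0.0316 CPM in ESC), with sums of 1062 to 1614 CPM against 27.8 to 86.4 CPM. Genes of each labelled cell type were thus higher in it. No ESC library held more than 0.0688 CPM of Msgn1, so Msgn1 passed the low-count filter through iPSM libraries alone. The direction of its call is not independent of the filter. Neural genes were 2 higher and 6 lower of 11 tested, with sums of 130 to 179 CPM in iPSM and 188 to 287 CPM in ESC. Olig2, which led the falls, had 0.00556 ± 0.0111 CPM in iPSM and 7.13 ± 1.19 CPM in ESC. Of 10 fibroblast feeder genes, 8 were lower in iPSM, with sums of 16.6 to 27.4 CPM in iPSM and 88.1 to 488 CPM in ESC, and Postn, a matrix protein gene, had 0.0780 ± 0.0587 CPM in iPSM and 15.0 ± 13.2 CPM in ESC. Endothelial genes were 3 lower of 8 (sums 10.2 to 15.1 CPM in iPSM and 46.6 to 97.3 CPM in ESC), with Tek at 1.38 ± 0.617 CPM in iPSM and 16.3 ± 5.85 CPM in ESC. Endoderm genes were 3 higher and 2 lower of 10 (sums 11.2 to 32.5 CPM in iPSM and 12.9 to 21.0 CPM in ESC), led by Cxcr4 with 9.49 ± 4.63 CPM in iPSM and 0.533 ± 0.142 CPM in ESC. Neural crest genes were 2 higher and 3 lower of 8, led by Foxd3 with 0.276 ± 0.150 CPM in iPSM and 18.8 ± 1.78 CPM in ESC, a gene that ESC also express. Chondrogenic and sclerotome genes were 5 lower of 7, led by Pax1 with 0.0237 ± 0.0474 CPM in iPSM and 0.118 ± 0.0572 CPM in ESC. Pax1 lay near the floor, with no read in untreated iPSM clones 20, 7 and 19 and at most 0.226 CPM in an ESC library. The shares called of the endoderm list (5 of 10) and the endothelium list (3 of 8) were below the 60.0% of all genes, and that of the neural crest list (5 of 8) was near it. The part of other cells in the Sox differences was not tested.

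The second comparison asked which Sox genes change when Clock and Bmal1 are induced. Sox8 rose in both cell types, 20.5-fold in iPSM within 2 hours and 16.1-fold in ESC within 6 hours, and it was the only one of the 9 members called in either. In iPSM 1.02% of 24805 genes tested were called (0.996% higher), and in ESC 0.422% of 22500 (0.404% higher), that is 95 genes, or 158 with the replicate block, which pairs the libraries of a clone. The median log2 fold change of the 9 members was −0.099 in iPSM and −0.20 in ESC, against −0.021 and −0.0075 over all genes tested. At an unadjusted p under 0.05 there were 5 members in iPSM (Sox1, Sox2, Sox4, Sox8 and Sox9) and 1 in ESC (Sox8), where 1386 of 24805 and 1686 of 22500 of all genes tested were. Of the other Sox genes, 0 of 8 tested in iPSM and 0 of 9 in ESC passed with edgeR or with DESeq2, and 1 had an unadjusted p under 0.05 (Sox12 in ESC, 1.34 ± 0.529, adjusted p = 0.599). Of the marker lists, 0 of 77 genes tested in iPSM and 0 of 69 in ESC passed with edgeR, with 14 and 11 at an unadjusted p under 0.05 and 0 and 4 with DESeq2 (Lefty1, Dll3, Cyp26a1 and Zic1, named after their values were seen). The untreated libraries of these clones also enter the comparison of iPSM with ESC.

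In dox-treated Clock/Bmal1 iPSM clones 12 and 20, Sox8 had 9.11 and 15.3 CPM (410 and 783.5 counts), against 0.626 and 0.578 CPM (33 and 26 counts) in the same clones untreated. In dox-treated Clock/Bmal1 ESC clones 1 and 7 it had 4.99 and 7.42 CPM (199 and 279 counts), against 0.351 and 0.399 CPM (18 and 21 counts) untreated. All 4 induced libraries lay above every other library, since the 16 others held 0.287 to 0.930 CPM. The log2 fold change was 4.36 ± 0.367 in iPSM (adjusted p = 0.000206) and 4.01 ± 0.398 in ESC (adjusted p = 0.00422), higher in 2 of 2 clones of each. The antisense 2810468N07Rik gave 0.72 in iPSM (adjusted p = 0.869) and 0.97 in ESC (0.659). Sox8 did not pass in ESC when untreated clone 1 was left out (3.90, adjusted p = 0.0746) or untreated clone 7 (4.11, adjusted p = 0.0657), while the iPSM call passed without each library, at 3.92 to 4.68. On the RPKM scale Sox8 reached 2.03 and 3.36 in the induced iPSM clones and 1.01 and 1.41 in the induced ESC clones, still below Sox2, Sox4 and Sox11.

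The control lines and the Clock/Bmal1DN clones give the level of Sox8 with dox but without induced wild-type Bmal1. Sox8 in the control lines was 0.706 CPM with dox and 0.762 CPM untreated in iPSM, and 0.533 CPM with dox and 0.722 CPM untreated in ESC. Dox-treated Clock/Bmal1DN iPSM clones 7 and 19 had 0.552 and 0.930 CPM, against 0.692 and 0.770 CPM untreated (log2 fold change 0.017 ± 0.369, adjusted p = 1). Dox-treated Clock/Bmal1DN ESC clones 5 and 6 had 0.528 and 0.573 CPM, against 0.375 and 0.287 CPM untreated (0.73 ± 0.410, adjusted p = 0.983). The ESC values with dox were above those without in both clones, and the dox-treated ESC control library, at 0.533 CPM, lay between them.

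The Clock/Bmal1 effect on Sox8 minus the Clock/Bmal1DN effect was 4.34 ± 0.511 in iPSM, or 20.2-fold (adjusted p = 0.00600). That made 1 of 9 members called, where 0.278% of all genes tested were (69 genes, or 132 with the replicate block). At an unadjusted p under 0.05 there were 2 members, Sox8 and Sox9, and 856 of all 24805 genes. For Sox8, leaving out dox-treated Clock/Bmal1DN clone 7 gave 4.01 (adjusted p = 0.0554), and leaving out untreated clone 19 gave 4.27 (adjusted p = 0.0501). Without dox-treated clone 19, the library with the low Arntl level, it was 4.76 (adjusted p = 0.0336). In ESC the difference was 3.28 ± 0.562, or 9.71-fold, and did not pass in edgeR (adjusted p = 0.144), where 0.0578% of genes were called (13 genes, or 25 with the replicate block). It passed with DESeq2 (3.30, adjusted p = 0.00524) and in edgeR with no filter on low counts (3.28, adjusted p = 0.00118), so the ESC call depends on these choices, and 1 member (Sox8) had an unadjusted p under 0.05.

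The Clock/Bmal1 effect was also compared between the cell types in all 20 libraries. For Sox8 the difference of iPSM minus ESC was 0.30 ± 0.527 on the log2 scale, with 0 of 9 members called by edgeR or DESeq2, an adjusted p of 1.00 for each in edgeR and 0 members at an unadjusted p under 0.05. Across all genes 0.00% were called in edgeR, with 1074 of 26689 at an unadjusted p under 0.05 and 15 called with DESeq2. The dose and the time of dox differed between the cell types, so a difference in response to equal induction cannot be read from these values. Leaving out dox-treated iPSM clone 20, the higher library, gave −0.12.

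**Figure D4:**
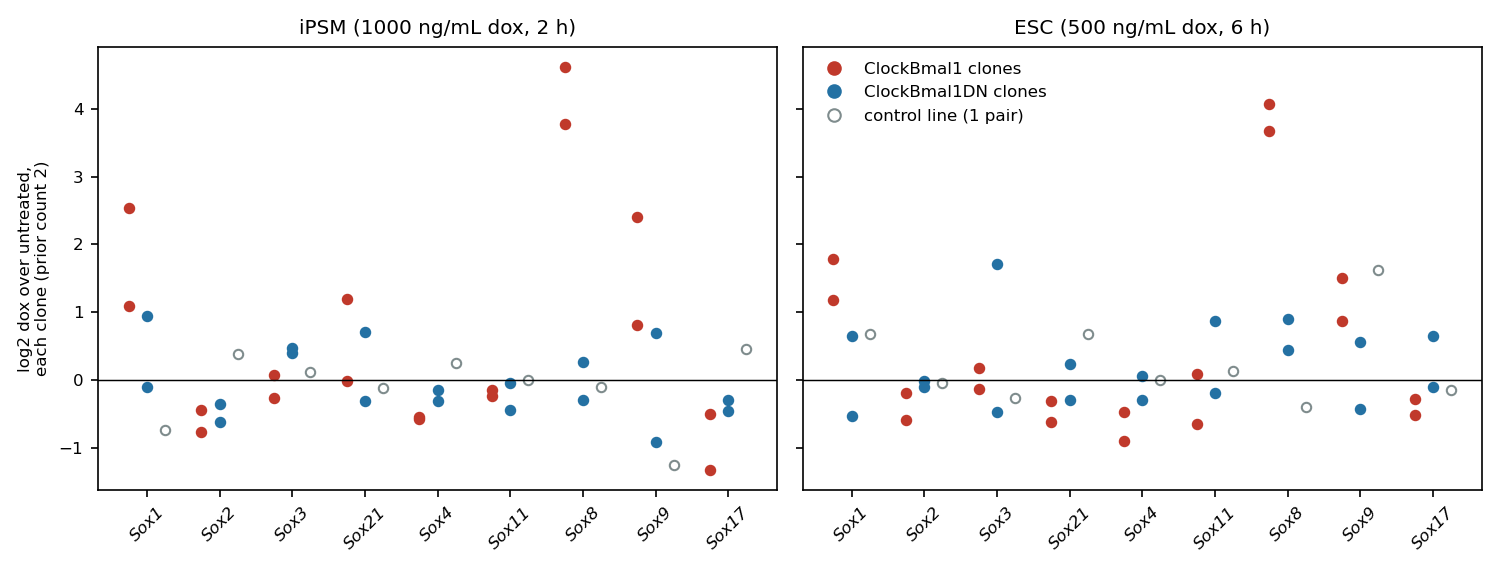
Log2 difference of dox over untreated for each clone and for the control lines, with 1 point a pair of libraries, for the 9 Sox genes in iPSM (left) and ESC (right), computed from CPM with a prior count of 2. Sox8 in the Clock/Bmal1 clones stands at 3.77 and 4.62 in iPSM and at 3.67 and 4.07 in ESC, and Sox1 and Sox9 follow in iPSM clone 20 at 2.54 and 2.41.

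Circadian E-box targets rose beside Sox8 with Clock/Bmal1. Of 10 such genes, 10 rose with Clock/Bmal1 in iPSM (median log2 fold change 2.98) and 10 in ESC (median 3.60). Over all genes tested, 0.996% and 0.404% were called higher. The list was chosen with earlier results of these data known, so these counts are no independent support. With Clock/Bmal1DN, 0 passed in either with edgeR, where 0 in iPSM and 4 in ESC had an unadjusted p under 0.05. In Clock/Bmal1DN ESC, Dbp, Nr1d1 and Hlf were lower with dox in both clones, and Per1, Tef and Ciart were higher in both. With Clock/Bmal1, Bhlhe41, a clock repressor, led with 5.30 ± 0.386 in iPSM and 6.34 ± 0.562 in ESC. Ciart, another repressor of CLOCK and BMAL1, rose by 4.60 ± 0.242 in iPSM and 4.59 ± 0.298 in ESC, close to the values of Sox8. In the Clock/Bmal1 minus Clock/Bmal1DN difference, 9 of 10 passed in iPSM and 6 of 10 in ESC, where 0.278% and 0.0578% of all genes tested were called. In the untreated iPSM clones against the untreated ESC clones, 2 of the 10 were higher and 1 was lower, a share below the 60.0% of all genes tested that were called.

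**Figure D5:**
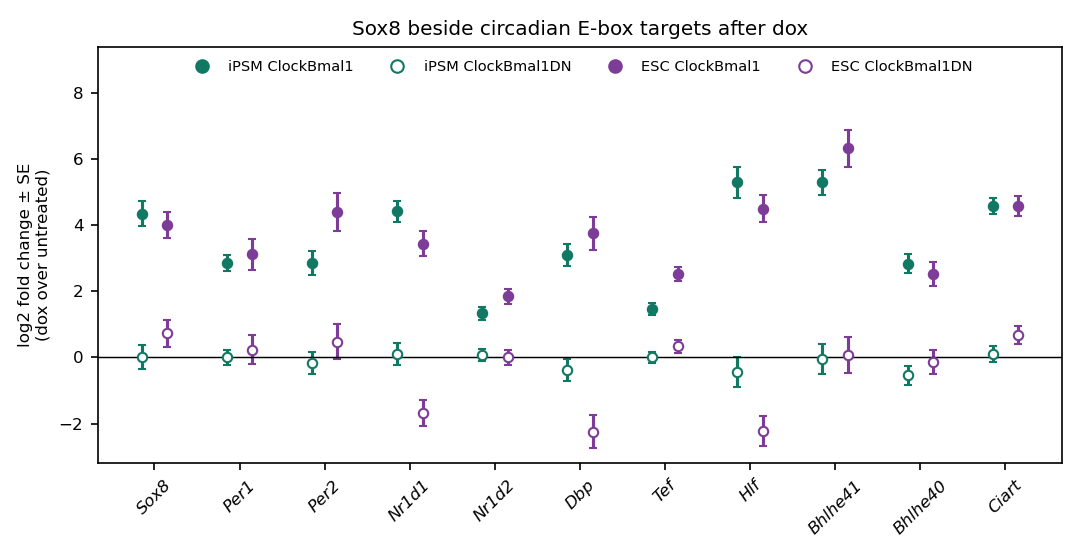
Log2 fold change ± SE of dox over untreated (2 clones each) for Sox8 and 10 circadian E-box targets, with Clock/Bmal1 filled and Clock/Bmal1DN open, and iPSM left of ESC. Sox8 at 4.36 in iPSM and 4.01 in ESC lies among the targets, which run between 1.33 and 5.30 in iPSM and between 1.86 and 6.34 in ESC. Sox8 and the targets were chosen with earlier results of these data known.

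Over the 16 clone libraries, after the mean of each cell type was taken off, log2(CPM + 1) of Sox8 was most like that of Ciart (Pearson r 0.988, Spearman rho 0.606) and Bhlhe41 (r 0.984, rho 0.565), of 13433 candidate genes. With the 2 libraries farthest from the median left out, r was 0.984 and 0.976. The 4 induced Clock/Bmal1 libraries stand apart from the other 12 for these genes, and the rank correlation is lower than r. Sox8 and Bhlhe41 stayed under 1 CPM in each of those 12. Both thus reached the mean of 1 CPM through the 4 induced libraries, on which r also rests. Leaving out 2 libraries keeps others of these 4, so it is no check on this. For Sox2 the closest genes were Ajuba (r 0.862) and Vasp (r 0.858), for Sox4 Mtap (r 0.939) and Nfatc4 (r 0.931), and for Sox11 Cnot2 (r 0.945) and Fgf5 (r 0.917). The 16 libraries come in pairs from 8 clones, so the points are not independent.

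Sox1 was above all other libraries of its cell type in the dox-treated Clock/Bmal1 clones, but did not pass the test. It had 1.27 and 2.79 CPM (57 and 143.5 counts) in dox-treated iPSM clones 12 and 20, against 0.569 and 0.445 CPM (30 and 20 counts) untreated. The other 6 iPSM libraries held 0.0954 to 1.09 CPM. The log2 fold change was 2.02 ± 0.489, or 4.07-fold (adjusted p = 0.115). It passed without dox-treated clone 12 (2.48, adjusted p = 0.0409) and with no filter on low counts (2.02, adjusted p = 0.000485). In dox-treated ESC clones 1 and 7 it had 0.852 and 1.78 CPM, against 0.215 and 0.760 CPM untreated (1.39 ± 0.674, adjusted p = 0.689), and the value was 0.74 without untreated clone 1 and 2.58 without untreated clone 7. Sox1ot, a transcript that contains Sox1 on the same strand, rose in iPSM (2.19 ± 0.418, 4.55-fold, adjusted p = 0.0312). It had 1.53 and 3.31 CPM in dox-treated clones 12 and 20, against 0.569 and 0.512 CPM untreated. Sox1ot did not pass once dox-treated clone 20 was left out (1.51, adjusted p = 0.479), nor once untreated clone 20 was (2.11, adjusted p = 0.0876). Reads of Sox1 and Sox1ot over their shared bases cannot be told apart.

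The Sox9 value in iPSM rested on 1 library. Sox9 had 0.333 and 1.49 CPM (15 and 76.5 counts) in dox-treated Clock/Bmal1 iPSM clones 12 and 20, against 0.171 and 0.245 CPM (9 and 11 counts) untreated, for a log2 fold change of 2.16 ± 0.769 (adjusted p = 0.510). Without dox-treated clone 20 it was 0.70, and with no filter it passed (2.15, adjusted p = 0.00778). The untreated iPSM control library held 47 counts, above dox-treated clone 12. In dox-treated ESC clones 1 and 7 Sox9 had 0.527 and 0.558 CPM (21 and 21 counts), against 0.156 and 0.285 CPM (8 and 15 counts) untreated (1.25 ± 0.638, adjusted p = 0.700).

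Sox2 was lower with dox in all 8 transgenic clones by CPM, by amounts that did not pass in any contrast. In dox-treated Clock/Bmal1 iPSM clones 12 and 20 it had 21.7 and 18.2 CPM, against 29.5 and 31.3 CPM untreated (log2 fold change −0.58 ± 0.159, adjusted p = 0.201). In dox-treated Clock/Bmal1 ESC clones 1 and 7 it had 101 and 139 CPM, against 152 and 158 CPM untreated (−0.40 ± 0.221, adjusted p = 0.708). Both induced ESC libraries lay below the other 8 ESC libraries. The Clock/Bmal1DN clones gave the same sign. Dox-treated iPSM clones 7 and 19 had 16.9 and 20.7 CPM, against 26.0 and 26.5 CPM untreated (−0.47 ± 0.160, adjusted p = 1, unadjusted p = 0.0127). Dox-treated ESC clones 5 and 6 had 176 and 141 CPM, against 190 and 142 CPM untreated (−0.095 ± 0.220, adjusted p = 0.989). The control lines had 30.4 CPM with dox and 23.3 CPM untreated in iPSM, and 191 CPM with dox and 198 CPM untreated in ESC. The Clock/Bmal1 minus Clock/Bmal1DN difference for Sox2 was −0.11 ± 0.225 in iPSM and −0.31 ± 0.312 in ESC.

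The SoxC genes and the remaining members gave no call with Clock/Bmal1. Sox4 was lower in the dox library of each Clock/Bmal1 clone, at 43.4 and 62.5 CPM in iPSM clones 12 and 20, against 64.6 and 90.9 CPM untreated (−0.53 ± 0.232, adjusted p = 0.843). In ESC clones 1 and 7 it had 21.2 and 53.4 CPM with dox, against 39.7 and 73.8 CPM untreated (−0.64 ± 0.453, adjusted p = 0.744), a value that ran between −1.40 without dox-treated clone 7 and −0.11 without untreated clone 7. The Clock/Bmal1DN values for Sox4 were −0.21 ± 0.232 in iPSM and −0.20 ± 0.451 in ESC, and the control had 104 CPM with dox and 87.5 CPM untreated in iPSM. Sox11 had 89.6 and 103 CPM with dox in iPSM clones 12 and 20, against 106 and 114 CPM untreated (−0.17 ± 0.150). In ESC its sign differed between clones, with 24.1 and 59.7 CPM with dox in clones 1 and 7, against 37.7 and 56.1 CPM untreated (−0.20 ± 0.406), and it was 0.32 without dox-treated clone 1. Sox17 had 0.222 and 0.506 CPM with dox in iPSM clones 12 and 20, against 0.626 and 0.734 CPM untreated, or 10 and 26 counts against 33 and 33 (−0.86 ± 0.494), and the value was −1.59 without dox-treated clone 20 and −0.40 without dox-treated clone 12. Sox3 and Sox21 gave −0.099 ± 0.310 and 0.67 ± 0.600 in iPSM, and 0.014 ± 0.659 and −0.52 ± 0.412 in ESC.

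With Clock/Bmal1DN, 0 of 9 members were called in iPSM, where 0.00403% of genes were, and 0 of 9 in ESC, where 0.00444% were. No member passed with DESeq2 or without the filter either, and 1 member in iPSM (Sox2) and 0 in ESC had an unadjusted p under 0.05, as did 159 of all 24805 genes in iPSM and 900 of all 22500 in ESC. The largest of these values was that of Sox3 in ESC, at 1.02 ± 0.672. It came from dox-treated clone 6, with 2.06 CPM against 0.597 CPM untreated (79 and 26 counts), while clone 5 had 0.402 CPM with dox and 0.575 CPM untreated.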

How the data were processed

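Total RNA of 20 mouse libraries was sequenced. Reads were aligned to mm10 with STAR 2.7.2a after bcl2fastq and counted with HOMER, per the submitters' processing notes. The authors deposited, per the file headers, estimated counts over gene bodies (reads placed at several sites are split, so counts come in steps of 0.5) and RPKM per gene-body length, 1 row per transcript. The deposited gene lengths are in bases. Whether counting used strand is not given in the sources used here.

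Counts were rounded to whole numbers and scaled by TMM. Genes were kept by filterByExpr by group and tested with edgeR 4.0.16 (quasi-likelihood, R 4.3.3), with Benjamini-Hochberg adjustment over all genes tested and a threshold of 0.05. Each cell type was fitted on its 10 libraries in 6 groups (4 residual degrees of freedom), and iPSM against ESC on all 20 libraries in 12 groups (8). The SE is the size of the log2 fold change over the root of F. The main fits have no block. DESeq2 1.42.0, DESeq2 size factors, no filter and leaving out each library of a contrast were alternatives. Fits with iPSM were also run without the untreated iPSM control library. The replicate block and leaving out the control line were alternatives in the dox contrasts only. For iPSM against ESC, the alternatives included adding the untreated control libraries and using the dox-treated clones. Libraries with and without dox of the same number come from the same line, which pairs them. The dox and untreated deviations from the group means correlated by 0.422 (ESC Clock/Bmal1), −0.0125 (ESC Clock/Bmal1DN), 0.189 (iPSM Clock/Bmal1) and 0.0872 (iPSM Clock/Bmal1DN) across genes. The tests were run on simulated counts with the same spread for every gene, no clone effect and changes set only in genes above 1 CPM. That check does not cover Sox genes with lower counts or differences between clones.

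The 9 Sox genes and all gene lists were chosen with earlier results of these data known, the E-box list and Sox8 included. All 9 are named. Other Sox genes are named where they passed or averaged at least 1 CPM, other lists by the gene that passed with the largest change. Likeness covers members and genes of at least 1 CPM on average. Prior counts of 2 enter the values by clone. Transcripts that overlap a Sox gene were added after seeing the data.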

Additional observations from a re-analysis of the deposited data

Results flagged for a closer look

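The effect of dox on Sox8 differed between the Clock/Bmal1 and Clock/Bmal1DN lines of iPSM, by 4.34 ± 0.511 on the log2 scale in an interaction test (edgeR, adjusted p = 0.00600). Sox8 was higher with dox in 2 of 2 Clock/Bmal1 clones, by 3.77 and 4.62, against −0.30 and 0.26 in the 2 Clock/Bmal1DN clones and −0.10 in the control line. Dox-treated Clock/Bmal1DN clone 19 had 143 CPM of Arntl, against 828 CPM in clone 7, and the part of this in the difference was not tested beyond leaving that library out (4.76). Leaving out each library in turn gave 3.91 to 4.76, and the call was lost in some of these fits. In ESC the same difference was 3.28 ± 0.562 and did not pass in edgeR (adjusted p = 0.144). Among 18 sets of 4 untreated clones (9 genes in 2 cell types), no clone stood far from the others by Dixon's ratio.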

How the results depend on the processing

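For 33 results of the Sox genes, of 367 values under alternatives, 343 kept their direction and side of the threshold, 9 passed newly, 4 were lost and 11 changed sign. For the 39 results of the Sox genes in the other contrasts, none of which passed, 47 of 470 values changed sign and 0 passed. Low counts limit Sox1, Sox3, Sox9, Sox17 and Sox21, and 2 clones per group limit all dox tests. Low counts also limit Sox8 in the untreated clones (12.5 to 39 counts), on which its folds with dox and its iPSM against ESC value rest. The cause of each change below was not tested. With the control libraries added, Sox9 in iPSM against ESC was 1.35. With the replicate block, Sox3 in ESC with Clock/Bmal1 was −0.0083, Sox8 with Clock/Bmal1 still passed at 4.30 in iPSM (adjusted p = 3.46e-06) and 3.99 in ESC (0.00247), and Sox8 in Clock/Bmal1 minus Clock/Bmal1DN still passed at 4.30 in iPSM (0.000296) and still did not in ESC at 3.25 (0.0956). The block changed no call of a Sox gene in the dox contrasts, and it was not fitted for iPSM against ESC.

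Leaving out each library gave −1.02 to 0.053 for Sox1 in iPSM against ESC, −0.95 to 0.32 for Sox11 in ESC with Clock/Bmal1, −0.37 to 0.36 for Sox3 in ESC and −0.33 to 0.17 in iPSM with Clock/Bmal1, −0.40 to 0.35 for Sox8 in iPSM with Clock/Bmal1DN and −0.12 to 0.62 for the Sox8 difference of iPSM minus ESC. Sox members called ranged between 0 and 1 in ESC and 1 and 2 in iPSM with Clock/Bmal1, and 0 and 1 for Clock/Bmal1 minus Clock/Bmal1DN in iPSM. They were 3 in iPSM with Clock/Bmal1 with no filter, and 1 in the ESC difference with DESeq2 and with no filter.

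Genes called among all tested, by Clock/Bmal1 in ESC, were 95, against 355 with DESeq2, 537 with no filter, 158 with the replicate block and 7 to 90 leaving out a library. In iPSM they were 254, against 597 with no filter and 83 to 678. With Clock/Bmal1DN they were 1 in ESC, against 6 with DESeq2, 463 with no filter and 0 to 2, and 1 in iPSM, against 8 with no filter and 1 to 2. For Clock/Bmal1 minus Clock/Bmal1DN they were 13 in ESC, against 130 with DESeq2, 410 with no filter, 25 with the replicate block and 0 to 8, and 69 in iPSM, against 157, 280, 132 and 16 to 167. For the Clock/Bmal1 effect of iPSM minus ESC they were 0, against 15 with DESeq2, 87 with no filter, 2 with the replicate block and 0 leaving out each library.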
